A study of Mus musculus with 24 samples.

Results

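The change of m6A enrichment from metaphase II (MII) oocytes to late 2-cell (L2C) mouse embryos was taken, for each gene, as the interaction of immunoprecipitation (IP) and stage, that is the log2 IP/input at L2C minus the log2 IP/input at MII. Its members are all genes with enough counts for the fit: 21950 of the 55471 genes in the count table passed the filter on low counts and were tested, 16163 of them protein-coding. The other genes were too low to test and are not described.

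The study profiled m6A through the maternal-to-zygotic transition (MZT) by SLIM-seq, a low-input form of m6A IP sequencing in which RNA bound by an m6A antibody is sequenced beside RNA that was not precipitated. Here 12 of the 24 libraries of the series carry the comparison, in 4 groups of 3: MII input, MII IP, L2C input and L2C IP. All came from wild-type B6D2F1 mice without any knockdown or treatment of the oocytes, and the labels give embryo as the tissue of both stages. MII oocytes were taken from the oviducts of superovulated 8-week-old females and stripped of cumulus cells, while L2C embryos were cultured from zygotes of such females mated with B6D2F1 males. Stage therefore cannot be told apart from fertilization, the sperm and culture in vitro. Each IP started from 100 ng of total RNA. Nothing in the labels says whether replicates came from separate collections, so P values measure the spread between these libraries, which may be technical.

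m6A is deposited on mRNA by a methyltransferase complex built around Mettl3 and Mettl14, preferably in RRACH-type sequence contexts such as GGACT near stop codons and in long exons. It can be removed by Fto and Alkbh5 and is read by YTH-domain proteins, among them Ythdf2, which brings marked mRNAs to deadenylation and decay. In the oocyte transcription is silent, so the mRNA pool is a maternal store that is cleared after fertilization while the zygotic genome starts to be transcribed, with its major wave at the 2-cell stage in mice. An enrichment value of a gene at 2 stages can thus belong to different RNA molecules, first maternal and then zygotic.

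Depth was 11107421 to 39739950 estimated counts per library over the 12 libraries, with both ends of the range in L2C IP libraries. The summed level of 10 oocyte markers was 9002 to 10355 CPM (counts scaled to the library total after TMM adjustment) in MII inputs and 928 to 982 in L2C inputs, and that of 10 2-cell markers was 28.9 to 34.5 and 532 to 711, as the stage labels state. Markers of cumulus cells summed to 61.4 to 68.1 CPM in MII inputs and 9.72 to 13.5 in L2C inputs, with 2 and 3 of the 10 at no more than 3 counts per library, and 3 of the 8 tested gained enrichment while 0 lost it. Of the oocyte markers 0 gained and 4 lost, and of the 2-cell markers 3 gained and 2 lost. Markers of sperm summed to 2.37 to 2.88 CPM in MII inputs and 57.5 to 77.6 in L2C inputs, with 4 and 3 of the 6 at no more than 3 counts per library, and of 3 tested 0 gained and 1 lost. The part of such cells in the results below was not tested. Beside these marker counts, 11.1% of all genes tested gained and 9.16% lost enrichment (edgeR, adjusted p under 0.05). Levels are shares of a library, so fewer cells of a type and less RNA per cell cannot be told apart, nor can a gene's decay and a rise of the rest. In the same way the scaling centres enrichment near 0, and a change of m6A common to all mRNAs would not be seen.

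From MII to L2C, 2428 genes gained IP enrichment and 2010 lost it at an adjusted p under 0.05, which is 11.1% and 9.16% of the genes tested and 20.2% in all (edgeR, quasi-likelihood test, n = 3 per group). Among protein-coding genes 2174 gained (13.5%) and 1765 lost (10.9%), 24.4% in all. Among other gene types 254 gained (4.39%) and 245 lost (4.23%), 8.62% in all. The log2 change was above 1 in size for 1404 of the gains and 1288 of the losses. Fitted on the 12 libraries alone, without those of 1-cell embryos, the counts were 1777 and 3008, so that 37.1% of the calls were gains and not 54.7%. That fit also moved the median change of all genes from 0.06 to -0.11, a shift of -0.17, and 3725 genes were called in the same direction by both. The per-library log2 IP/input values of MII and L2C did not overlap for 2402 of the 2428 and 1994 of the 2010, against 28.7% higher and 24.6% lower without overlap among all genes tested.

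Most gains started from depletion in the oocyte. Of the genes that gained enrichment, 1711 (70.5%) were significantly depleted from the IP at MII, against 20.9% of all genes tested, and 919 (37.9%) were enriched at L2C, against 21.8%. Of the genes that lost enrichment, 1094 (54.4%) were enriched at MII, against 17.6% of all genes, and 1187 (59.1%) depleted at L2C, against 22%. On library size alone 51.9% of the gains were enriched at L2C, against 33.2% of all genes tested. These calls share libraries with the interaction and are given as a description of its parts. Fewer genes changed sides. Depletion at MII turned into enrichment at L2C for 255 genes, and enrichment into depletion for 325, and over the alternatives these counts ran from 153 (no filter on low counts) to 330 (library size alone) and from 260 (without L2C input replicate 3) to 500 (the 12 libraries alone). In addition 530 gains were between 2 depleted states and 127 losses between 2 enriched ones. In protein-coding genes the median log2 IP/input of the gains was -0.99 at MII and 0.18 at L2C, and that of the losses 0.58 and -0.65. The input RNA enters the interaction, so its change is set beside it and is no separate evidence. Its median log2 change was -1.47 for gains and 1.29 for losses, and that of the IP -0.32 and -0.03, while 43.4% of all genes tested had higher and 38.9% lower input at L2C.

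**Figure D1:**
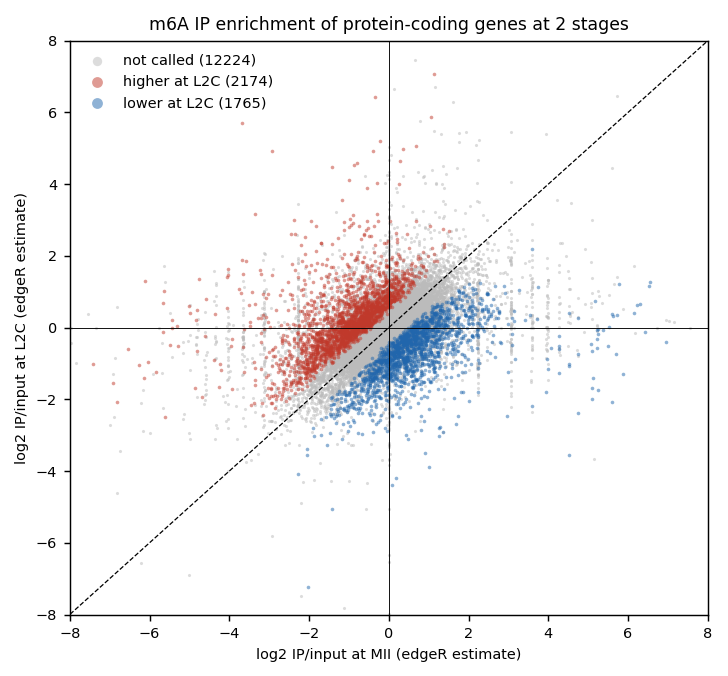
Log2 IP/input of protein-coding genes at MII (x axis) and L2C (y axis), as fitted by edgeR, with genes of higher (red, 2174) and lower (blue, 1765) enrichment at L2C beside the genes not called (grey, 12224). Points off the dashed diagonal changed between the stages, the upper left quadrant holds genes depleted at MII and enriched at L2C, and 34 genes lie beyond the plotted limit of 8.

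Among single genes, the gains by the naming rule were led by Frmpd1, Fbxo10 and Grb10 and the losses by Dnmt1, Tacc3 and Tbc1d10b. Shown here is the GGACT nearest to the stop codon in the longest annotated transcript of each, since this is a frequent core of the m6A context, with the motif in capitals and 10 bases on either side. Sequences and positions are from GENCODE M21 on GRCm38, on the strand of the gene, and no site was measured in these data.
Frmpd1: tgacagagctGGACTtggcccctga
Fbxo10: ggctgcctggGGACTaagaaccagg
Grb10: tcccacccaaGGACTcagaacaaca
Dnmt1: ctgctaccaaGGACTagtgctctca
Tacc3: ttcccatcagGGACTagaacctgtc
Tbc1d10b: cattgctgagGGACTgcatccatcc
The window of Frmpd1 lies at chr4:45284713-45284737 on the plus strand in the coding part of the last of its 16 exons, with the A of the motif 1105 bases before the end of the stop codon. That of Fbxo10 (chr4:45035756-45035780, minus) and that of Grb10 (chr11:11933353-11933377, minus) lie in the 3′ UTR, 140 and 98 bases past the stop codon. In Dnmt1 (chr9:20907513-20907537, minus, last of 39 exons) the motif runs into the stop codon itself. The windows of Tacc3 (chr5:33664791-33664815, plus, exon 5 of 16) and Tbc1d10b (chr7:127198898-127198922, minus, last of 9 exons) are coding, 987 and 339 bases before the end of the stop codon. GGACT occurred 7 times in the transcripts of Frmpd1, Fbxo10, Grb10 and Tacc3 and 3 times in those of Dnmt1 and Tbc1d10b. On the sense strand it was present in 96.3% of the transcripts of protein-coding genes that gained enrichment, 92.8% of those that lost it and 90.8% of all tested, with medians of 1.01, 1.12 and 1.05 per kb.

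Frmpd1 (chr4:45184875-45285936), a gene for a FERM and PDZ domain protein, stood at 65.4, 70.2 and 71.1 CPM in the MII inputs but only 10.9, 12.2 and 12.7 in the MII IPs. At L2C the inputs had fallen to 11.5, 11.8 and 13.98 CPM and the IPs read 15.3, 17.4 and 19.1. So the transcript was strongly under-represented in the oocyte IP and over-represented in that of the embryo, with log2 IP/input of -2.53 and 0.48 and an interaction of 3.01 (SE 0.21, adjusted p 1.41e-08). Fbxo10 (chr4:45034247-45084604), an F-box substrate receptor of a ubiquitin ligase, lies 100270 bp from Frmpd1 and moved in the same direction, with 64.03, 71.7 and 78.1 CPM in MII inputs and 5.92, 7.89 and 9.29 in MII IPs. Its L2C inputs read 7.16, 8.33 and 9.16 and its L2C IPs 8.82, 9.86 and 10.9 CPM, and the interaction was 3.48 (SE 0.24, adjusted p 1.41e-08). While the input fell, the IP level rose by 0.54 on the log2 scale for Frmpd1 (adjusted p 0.00218) and differed by 0.36 for Fbxo10 (adjusted p 0.0563). In neither gene did a library of one stage overlap the other in log2 IP/input, which the naming rule required.

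Grb10 (chr11:11930508-12038683), an imprinted adaptor of insulin receptor signalling, had 83.5, 90.1 and 92.8 CPM in MII inputs against 10.7, 11.9 and 12.5 in the IPs. In L2C inputs it read 31.00, 31.7 and 31.7 and in L2C IPs 19.4, 20.5 and 21.01. It remained depleted in embryos (log2 -0.63) but far less so than in oocytes (log2 -2.92), an interaction of 2.29 (SE 0.17, adjusted p 2.28e-08). Ambra1 (chr2:91730134-91918849), a scaffold of autophagy that also controls cyclin D turnover, gained on a small change of its mRNA (-0.35 on the log2 scale). Its inputs read 123.6 to 140.0 CPM at MII and 102 to 103 at L2C, and its IPs 26.1, 34.5 and 37.8 and then 103, 109 and 111. The log2 IP/input went from -2.00 to 0.06 with an interaction of 2.06 (SE 0.18, adjusted p 8.31e-08).

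The rule named 8 further gains. Acly, which makes cytosolic acetyl-CoA, went from log2 -2.84 to -0.79, and Pdk1, a kinase that restrains pyruvate dehydrogenase, from -2.12 to -0.17. Cers6, a ceramide synthase, changed from depletion (-1.34) to enrichment (0.53), as did the Wnt co-receptor gene Lrp6 (-1.74 and 0.44). Ern1, the IRE1 sensor of the unfolded protein response, and Tbc1d8, a predicted regulator of Rab GTPases, were abundant maternal mRNAs with 992 to 1069 and 962 to 1056 CPM in MII inputs and stayed depleted at both stages. Their log2 IP/input rose from -2.61 to -0.86 and from -3.09 to -1.38. Kntc1, a kinetochore protein of the spindle checkpoint, moved from -1.92 to 0.19, and Kansl1, a subunit of the NSL histone acetyltransferase complex, from -1.23 to 0.40. The interactions of the 12 gains ran from 1.62 to 3.48, and adjusted p values from 1.41e-08 to 2.02e-07. All 12 had lower input at L2C than at MII.

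Dnmt1 (chr9:20907209-20959888), the maintenance DNA methyltransferase, turned from one of the clearly enriched mRNAs of the oocyte into a depleted one in the embryo. Its MII inputs read 201, 216 and 243 CPM and its MII IPs 709, 812 and 865, whereas the L2C inputs read 109.9, 112 and 126 and the L2C IPs 31.5, 33.8 and 34.9. The log2 IP/input thus passed from 1.85 to -1.80, an interaction of -3.65 (SE 0.18, adjusted p 6.86e-11). Here the IP fell by 4.57 on the log2 scale and the input by 0.92.

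Tacc3 (chr5:33658128-33678995), a spindle microtubule protein, had 161, 169 and 189.8 CPM in MII inputs and 1261, 1499 and 1650.4 in MII IPs. In L2C inputs there were 239, 249 and 298 and in L2C IPs 184, 192 and 192 CPM. With mRNA slightly higher in embryos, the excess in the oocyte IP (log2 3.08) gave way to a slight depletion (log2 -0.47), with an interaction of -3.55 (SE 0.19, adjusted p 3.35e-10). Heatr1 (chr13:12395027-12440289), a nucleolar factor of pre-rRNA processing, differed from both, with inputs that rose from 9.32, 10.1 and 10.6 to 69.5, 73.6 and 74.8 CPM. Its IPs rose less, from 29.3, 30.4 and 30.8 to 45.7, 47.6 and 50.2 CPM, and the interaction was -2.19 (SE 0.16, adjusted p 1.63e-08). Tbc1d10b (chr7:127197459-127208468), a Rab GTPase-activating protein, had 0.599, 1.07 and 1.16 CPM in MII inputs and 6.63, 7.52 and 8.46 in MII IPs, then 57.5, 61.1 and 70.4 in L2C inputs and 21.8, 28.7 and 30.1 in L2C IPs. Its oocyte level was low, and the interaction was -4.21 (SE 0.29, adjusted p 1.44e-08).

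Of the remaining losses, Prpf3 and Rrp12 belong to splicing and to the export of small ribosomal subunits. Prpf3 went from log2 1.46 to -0.73, while Rrp12 was near 0 in oocytes (0.25) and strongly depleted in embryos (-2.50) as its input rose from between 11.7 and 13.1 CPM to between 226 and 285 CPM. Ccnf, the cyclin F that is itself an F-box protein, changed from 0.88 to -1.90, and Fxr2, an RNA-binding relative of the fragile X protein, from 2.06 to -1.001. Supt20, a subunit of the SAGA coactivator, and Kansl3, a subunit of the NSL complex, moved from 0.83 to -0.97 and from 1.38 to -0.98. Kansl3 and Kansl1, partners in a single complex, therefore moved in opposite directions. Fam98a went from 1.44 to -0.72. Lrrfip2 lost a high oocyte enrichment (2.28) and was at 0.07 in embryos, with inputs of 19.2 to 22.5 and 15.3 to 17.6 CPM. Of the 12 losses, 10 had higher and 2, Dnmt1 and Lrrfip2, lower input at L2C. All 24 genes kept their calls under every alternative tried.

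**Figure D2:**
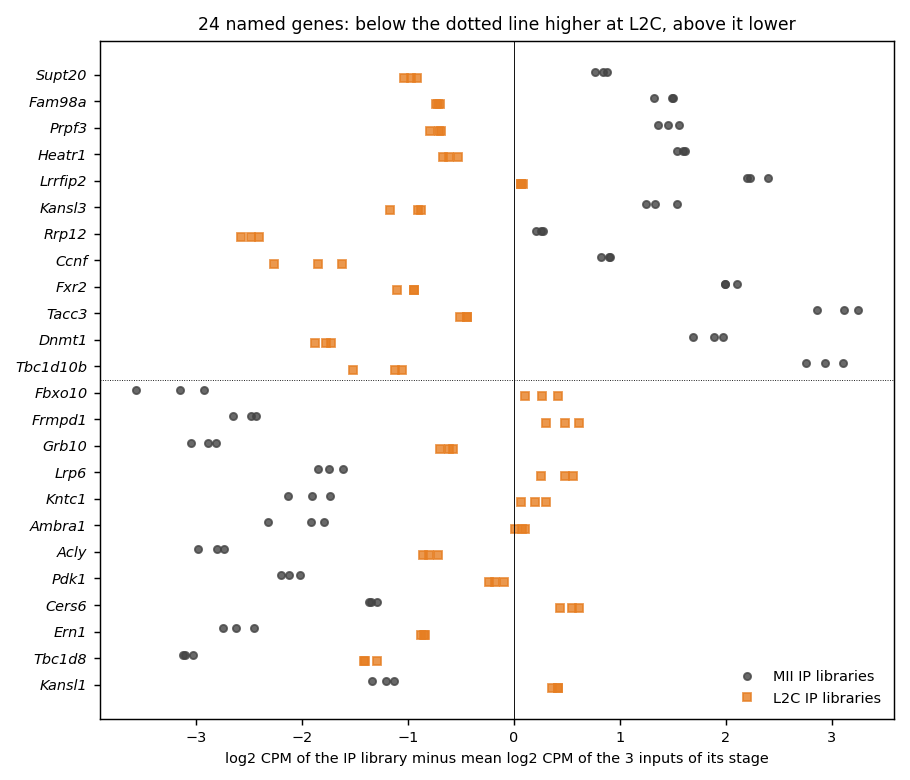
Log2 CPM of each IP library minus the mean log2 CPM of the 3 inputs of its stage (x axis) for the 24 protein-coding genes named by rule (y axis), with MII libraries as circles and L2C libraries as squares. Genes under the dotted line were higher at L2C and genes over it lower. The naming rule required the 3 values of a stage to lie apart from those of the other.

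**Figure D3:**
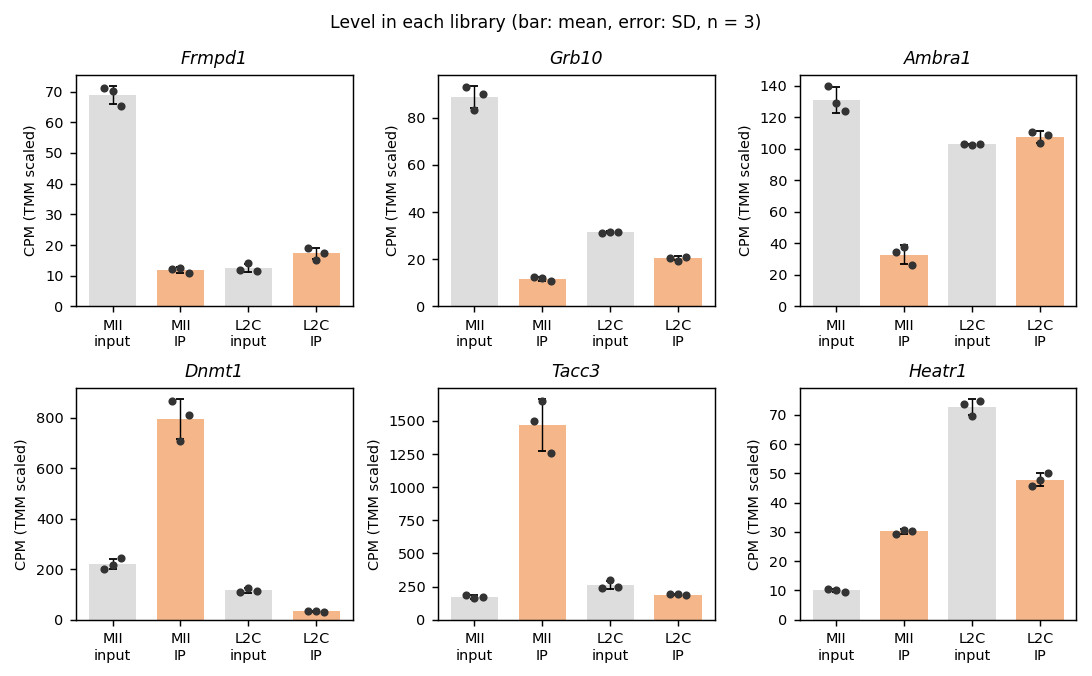
TMM-scaled CPM (y axis) of 3 genes with higher and 3 with lower enrichment at L2C in the 12 libraries (points), with bars for the mean and error bars for the SD of 3 libraries. Frmpd1 falls from input to IP at MII and not at L2C, while Dnmt1 and Tacc3 rise from input to IP at MII and fall at L2C.

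Genes of other types had lower counts, with a median of 25.3 for long intergenic RNAs and 293 for protein-coding genes, so their shares of calls are not comparable. Those named by the rule were long intergenic RNAs and processed pseudogenes. Gm12649 (chr4:93453258-93671070), a long intergenic RNA, lost enrichment from log2 2.14 to -0.61, with inputs of 5.54, 6.23 and 6.50 CPM at MII and 51.2, 54.1 and 54.3 at L2C and an interaction of -2.75 (SE 0.20, adjusted p 1.63e-08). Gm33969 (chr5:97325904-97348439) gained, from -0.88 to 0.76, at inputs of 8.92 to 11.7 and 6.72 to 11.1 CPM, with an interaction of 1.64 (SE 0.26, adjusted p 1.25e-04). AU019990 (chr2:132598195-132653068), also long intergenic, passed from -0.15 to 0.96 on inputs of 14.6 to 17.2 and 12.8 to 13.5 CPM. The pseudogenes Gm6877 (1.55), Gm9788 (-1.73) and Gm4366 (-3.33) are near copies of other genes, so their reads may belong to the parent.

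The transcripts of the m6A machinery were followed in full. Of 13 genes for writers and their partners, Virma gained and Pcif1 and Mettl14 lost enrichment. Virma, the scaffold that guides methylation to 3′ ends, fell from 163, 164 and 183 to 20.2, 21.8 and 22.9 CPM in the inputs but only from 90.7, 94.8 and 95.1 to 23.4, 23.8 and 25.1 in the IPs, an interaction of 1.02 (SE 0.18, adjusted p 2.81e-04). For Pcif1, which methylates the cap-adjacent adenosine, inputs of 64.5, 75.5 and 76.2 CPM at MII came with IPs of 99.8, 101 and 114, and inputs of 31.8, 33.1 and 35.4 at L2C with IPs of 19.4, 20.98 and 23.4. Its interaction was -1.19 (SE 0.23, adjusted p 6.83e-04), and 16.98% of its span lies in another gene. Mettl14, the RNA-binding partner of Mettl3, changed by -0.86 (SE 0.25, adjusted p 0.0164), a call that was lost without L2C input replicate 1 (adjusted p 0.0557).

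Mettl3, the catalytic subunit, had an interaction of 0.49 (SE 0.21, adjusted p 0.110) and passed the test only without L2C IP replicate 2 (adjusted p 0.0487). Its inputs fell from between 129 and 161 CPM to between 15.9 and 19.1 CPM. The interactions of Wtap (-0.24), Rbm15 (0.12), Zc3h13 (0.05), Cbll1 (0.08), Mettl16 (-0.15), Mettl5 (-0.46), Trmt112 (-0.67) and Zcchc4 (0.31) did not pass the test, with adjusted p values from 0.177 to 0.930. On the 12 libraries alone Trmt112 was called lower (-0.83, adjusted p 0.00696). Among them Wtap stayed enriched at both stages (1.21 and 0.97) and Rbm15 depleted at both (-1.82 and -1.69). Of the spans of Mettl3 and Trmt112 15.2% and 35.7% lie in other genes. Rbm15b was listed at 0 in 9 of the 12 libraries, and its span lies wholly inside another gene.

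Both erasers gained. Alkbh5 read 585, 672 and 729 CPM in MII inputs and 315, 341 and 347 in MII IPs, then 148, 152 and 171 in L2C inputs and 120.1, 124.3 and 131 in L2C IPs, an interaction of 0.66 (SE 0.19, adjusted p 0.0160). Fto changed by 0.99 (SE 0.27, adjusted p 0.0123), and on the 12 libraries alone by 0.81 (adjusted p 0.0591), with 12.7% of its span in other genes. Of 14 readers, Ythdf3, Igf2bp1 and Elavl1 gained and Ythdc2 lost. Ythdf3, a cytoplasmic reader linked to translation and decay, fell in the inputs from 492, 587 and 588 to 99.1, 113 and 132 CPM and in the IPs from 102, 121 and 138 to 53.4, 55.5 and 57.7, so its depletion eased by 1.16 (SE 0.20, adjusted p 2.17e-04). Ythdc2, the helicase reader needed in meiosis, rose in the inputs from 102, 105 and 108 to 484, 518 and 539 CPM while the IPs reached 234, 239.8 and 258, a change of -1.24 (SE 0.17, adjusted p 2.96e-05).

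The mRNA stabilizer Igf2bp1 changed by 0.89 (SE 0.24, adjusted p 0.0105) and Elavl1, the HuR protein that binds AU-rich elements, by 0.53 (SE 0.16, adjusted p 0.0193). The call of Elavl1 was lost without MII input replicate 3 (adjusted p 0.0544), on the 12 libraries alone (0.136) and without a filter on low counts (0.194), and that of Igf2bp1 without a filter on low counts (adjusted p 0.0637). Ythdf2, the decay reader, remained depleted (-0.97 and -0.69) and Ythdc1, the nuclear reader, enriched (0.78 and 1.24), with interactions of 0.29 and 0.46 that did not pass (adjusted p 0.279 and 0.189). The remaining readers did not pass either, namely Ythdf1 (-0.20), Igf2bp2 (0.37), Igf2bp3 (-0.24), Hnrnpa2b1 (-0.44), Hnrnpc (0.10), Rbmx (0.28), Fmr1 (0.98) and Prrc2a (-0.13). Of the span of Ythdc1 39.7% lies in other genes. Igf2bp2 passed among genes with a mean of at least 50 counts (0.44, adjusted p 0.0249). Ythdf1, Hnrnpa2b1 and Wtap were enriched at both stages by more than 0.9 on the log2 scale.

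Gene groups were read by counts and medians against all protein-coding genes tested, of which 13.5% gained and 10.9% lost with a median of 0.05. The SD over libraries given with a median combines the spread of the list's median log2 IP/input over the 3 IP libraries of each stage. The spread of the inputs is left out of it. Machinery that destroys maternal mRNA had calls in both directions. Of 28 genes of deadenylation, decapping and decay 9 gained and 6 lost (median 0.49, SD over libraries 0.07), with 4 gains where genes with over 10% overlap were left out, and single complexes held both. In the CCR4-NOT deadenylase, the scaffold Cnot1 lost (-1.28, SE 0.16, adjusted p 8.02e-06) as its input rose from between 49.4 and 54.4 CPM to between 219.5 and 237 CPM. Cnot2, a subunit of its NOT module, gained 1.05 (adjusted p 6.28e-04), and the catalytic Cnot8 gained 0.92 (adjusted p 0.00141), although 75.2% of the span of Cnot2 lies in other genes. In decapping, Dcp1a had 2482, 2582 and 2843 CPM in MII inputs and 303, 312 and 360.4 in IPs, then 65.1, 65.3 and 69.5 and 23.96, 26.5 and 29.2 at L2C, and gained 1.70 (SE 0.16, adjusted p 2.18e-07), with 25.1% of its span in another gene. Its catalytic partner Dcp2 lost 1.06 (SE 0.17, adjusted p 1.44e-04), from log2 1.25 to 0.18. Btg4, an adaptor of maternal mRNA clearance, was at 0.33 (adjusted p 0.130) and passed among genes with a mean of at least 50 counts (0.39, adjusted p 0.0436), with 63.3% of its span in other genes.

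Of 20 genes of cleavage and polyadenylation 7 lost and 2 gained. Cpsf4, a zinc finger subunit at the poly(A) signal, passed from log2 1.47 to -0.45 (-1.92, SE 0.24, adjusted p 6.68e-06), and the scaffold Sympk from 0.95 to -0.59 (-1.54, SE 0.20, adjusted p 1.39e-05). Cpsf6, a subunit of cleavage factor I, gained 0.97 (SE 0.19, adjusted p 8.34e-04). Among 24 genes of small RNA pathways 7 lost and 4 gained. The microRNA processing factors Drosha (-1.81, SE 0.22, adjusted p 7.32e-06), Dicer1 (-0.86, SE 0.18, adjusted p 0.00136) and Dgcr8 (-0.84, SE 0.21, adjusted p 0.00681, 12.9% of its span in other genes) all lost. Xpo5, the exporter of microRNA precursors (1.28, SE 0.22, adjusted p 2.40e-04), and the germ cell helicase gene Ddx4 (0.91, SE 0.23, adjusted p 0.00737) gained. Of 20 genes that store and repress maternal mRNA, 5 gained and 4 lost, with Cpeb3 at 1.31 and Ybx3 at -1.41 (adjusted p 5.31e-05 and 3.56e-04). Of the span of Cpeb3 12.7% lies in other genes, and where genes with over 10% overlap were left out, 2 gained and 2 lost. The count of losses also fell to 2 without MII IP replicate 1 or without MII input replicate 3.

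Of 53 genes of ribosome biogenesis 17 lost and 4 gained (median -0.42, SD over libraries 0.06), and over the alternatives 15 to 24 lost. Beside Heatr1 and Rrp12 these were for instance Nol9, a polynucleotide kinase of pre-rRNA (-1.52, input 16.1 to 18.4 CPM at MII and 179 to 222 at L2C), Rrp8 (-1.48, 14.04% of its span in other genes) and the GTPase genes Gnl2 (-1.07) and Gnl3 (-1.07). The input of Gnl2 fell, from between 202 and 227 CPM to between 95.9 and 104 CPM. Gains numbered 1 without L2C IP replicate 3 and 2 without L2C IP replicate 1, MII IP replicate 3 or MII input replicate 3. Of 93 nuclear genes of oxidative phosphorylation 11 lost and 1 gained (median -0.15, SD over libraries 0.10), so that the share that lost, 11.8%, was near that of all coding genes and the share that gained, 1.08%, below it. Among the losses were the complex I genes Ndufv3 (-1.57, SE 0.26, adjusted p 1.82e-04) and Ndufa13 (-0.94, SE 0.18, adjusted p 6.06e-04), the latter wholly inside other genes. The gain, of Ndufs1 (44.5% of its span in other genes), was lost whenever 1 of 9 of the libraries was left out. Of 82 cytosolic ribosomal protein genes 5 lost and 2 gained, which is below the share of all coding genes, although the median was -0.48 (SD 0.31). Losses numbered 3 without L2C IP replicate 3, L2C input replicates 1 or 3 or MII input replicate 1, and gains 1 without MII IP replicates 2 or 3, and 19 members had a group at no more than 3 counts per library. On the 12 libraries alone 12 ribosomal protein genes and 20 genes of oxidative phosphorylation lost.

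In RNA polymerase II and Mediator 9 of 43 lost and 3 gained, 5 lost without L2C input replicate 2 or MII IP replicate 2, and 18 lost on the 12 libraries alone. Over all alternatives 1 to 4 of this list gained. Polr2b, the second largest subunit, went from log2 1.25 to -0.67 (-1.92, SE 0.21, adjusted p 1.38e-06). Of 56 translation initiation genes 11 lost and 5 gained, with 7, 6 and 5 losses without L2C IP replicate 2, MII IP replicate 2 and MII input replicate 3. Of 48 proteasome genes 8 lost and 2 gained, with 5 losses without MII input replicate 2 and 1 gain without L2C IP replicate 1, and with 14 losses on the 12 libraries alone. Heat shock and DNAJ genes were split, with 13 losses and 11 gains among 67. There Hspa5, the chaperone BiP of the endoplasmic reticulum, fell from log2 1.02 to -1.07 as its input rose from between 119 and 132 CPM to between 1028 and 1433 CPM. Hspa12a, a distant Hsp70 relative, gained 1.64 (SE 0.21, adjusted p 8.52e-06).

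Of 13 mRNAs encoded by mitochondrial DNA 12 were enriched at MII and 12 at L2C, with medians of 1.74 at MII and 1.64 at L2C and a median interaction of -0.01 (SD 0.52). None of the 13 passed in edgeR or DESeq2, and 0 had an unadjusted p under 0.05.

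Of 9 Nlrp4, Nlrp9 and Nlrp14 genes, maternal relatives of inflammasome proteins, 4 gained and 0 lost (unadjusted p under 0.05 in 6 and 0, DESeq2 3 and 0, median 0.68, SD over libraries 0.22). Nlrp4a fell in the inputs from 902, 943 and 1005 to 22.96, 29.04 and 31.1 CPM and in the IPs from 602, 671 and 717 to 30.6, 31.6 and 32.03, an interaction of 0.70 (SE 0.20, adjusted p 0.0172). Nlrp4b, the member with the smallest p, changed by 1.58 (SE 0.33, adjusted p 0.00219). The count fell to 2 without L2C IP replicate 3, L2C input replicate 2, either of MII IP replicates 1 and 2 or either of MII input replicates 1 and 2. Of 16 Oogenesin and PRAME-like genes 4 gained and 0 lost (unadjusted 9 and 0, DESeq2 5 and 0, median 0.64, SD over libraries 0.34), with 8 gains without L2C IP replicate 2 and 1 without MII input replicate 1. Pramef12, the member with the smallest p, had 983, 1099 and 1529.7 CPM in MII inputs and 125, 128 and 182 in IPs, then 69.5, 71.3 and 85.8 and 14.6, 21.9 and 24.4 at L2C, an interaction of 1.17 (SE 0.27, adjusted p 0.00377). Input at L2C was higher for 8 and lower for 6 of the 16, and 6 had a group at no more than 3 counts per library. Members of both families are close copies of one another, so that reads may be split between them.

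Of 17 genes of the zona pellucida, fertilization and oocyte growth 2 lost and 0 gained (edgeR, unadjusted 3 and 0, DESeq2 3 and 0), and the 11.8% that lost is near the share of all coding genes. Bmp15, an oocyte growth factor, was enriched at both stages but less at L2C (1.20 and 0.65, -0.55, SE 0.15, adjusted p 0.0103), and Nobox, an oocyte transcription factor, lost 1.09 (SE 0.27, adjusted p 0.00653). Gdf9, the partner of Bmp15, was depleted at both stages with an interaction of 0.43 that did not pass (adjusted p 0.265). Of 8 genes of the subcortical maternal complex 2 lost and 1 gained, the gain being lost whenever 1 of 7 of the libraries was left out. Over all alternatives 0 to 2 of this list gained and 2 to 4 lost. Nlrp5 lost 1.20 (SE 0.23, adjusted p 7.62e-04).

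Chromatin regulators held calls of both signs. In DNA methylation 4 of 17 genes lost and 3 gained. Opposite to Dnmt1, its recruiter Uhrf1 eased from log2 -1.81 to -1.07 (0.74, SE 0.19, adjusted p 0.00633) as its inputs fell from between 751 and 930.5 CPM to between 30.1 and 31.8 CPM, and the de novo enzyme Dnmt3b gained 0.84 (SE 0.21, adjusted p 0.00559). Tet1, an oxidase of methylcytosine, lost 1.33 (SE 0.21, adjusted p 9.40e-05), while Dnmt3a, Dnmt3l and Tet3 were at -0.41, 0.09 and -0.29 and did not pass. On the 12 libraries alone 7 genes of this list lost, among them Dnmt3a (adjusted p 0.0121) and Tet3 (adjusted p 0.0230, 10.6% of its span in other genes). Of 20 histone variant and chaperone genes 4 gained and 3 lost, and over all alternatives 0 to 6 gained and 1 to 3 lost. Chaf1a, the large subunit of CAF-1 that works with replication, had inputs of 86.9, 93.2 and 100.5 CPM at MII and 93.6, 105 and 123.8 at L2C, yet its IPs read 328, 351 and 435 and then 45.2, 57.6 and 70.7. That is an interaction of -2.88 (SE 0.22, adjusted p 2.95e-08) with inputs that differed by 0.20 (adjusted p 0.240), with 16.5% of the span in another gene. Chaf1b (-1.09) and the egg nucleoplasmin Npm2 (-1.94, log2 2.57 to 0.63, 41.9% of its span in other genes) also lost. Among the gains were the histone chaperone genes Daxx (0.55, adjusted p 0.0241) and Nap1l1 (1.01, adjusted p 0.0244), beside Atrx (0.75) and H1f0 (0.86). The call of Daxx was lost under 8 of 21 alternatives, namely on the 12 libraries alone (adjusted p 0.141), without a filter on low counts (0.143) and without L2C IP replicate 3, L2C input replicates 1 or 3, MII IP replicates 1 or 3 or MII input replicate 2. The count of gains depended on single libraries, with 0 without MII input replicate 2, 1 without L2C IP replicate 2, L2C input replicate 2 or MII IP replicate 2, and 2 without L2C IP replicate 3, MII IP replicate 1 or MII input replicate 3.

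Of 28 Polycomb genes 8 gained and 5 lost. Cbx2, a chromobox reader, gained 1.28 (SE 0.20, adjusted p 1.21e-04) and Jarid2, a PRC2 cofactor, 0.78 (SE 0.15, adjusted p 6.93e-04), whereas Pcgf3, a PRC1 RING partner, went from log2 0.74 to -0.98 (-1.72, SE 0.19, adjusted p 1.59e-06) on an input that rose from between 399 and 458 CPM to between 2855 and 3099 CPM. The PRC2 methyltransferase Ezh2 was enriched at both stages (0.83 and 0.65) with an interaction of -0.18 (adjusted p 0.590). In H3K4 methylation 4 of 15 lost and 3 gained, 1 without L2C IP replicates 1 or 3. The core subunits Ash2l (-2.14, SE 0.20, adjusted p 2.78e-07) and Wdr5 (1.27, SE 0.23, adjusted p 4.76e-04), which sit in the same complexes, moved apart. Ash2l stood at 3569 to 4267 CPM in L2C inputs. Trim28, the corepressor of zinc finger proteins that guards imprints, lost its oocyte enrichment (1.70 to 0.12, -1.58, SE 0.22, adjusted p 2.51e-05, 19.2% of its span in other genes). Zfp zinc finger genes held 50 gains and 44 losses among 359, which is 13.9% and 12.3% and near the shares of all coding genes.

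Cell division genes were split. Of 34 genes of the meiotic spindle and cell cycle 10 lost and 5 gained, with 6 losses without L2C IP replicate 3 or L2C input replicate 2. The checkpoint kinase Bub1 lost enrichment (1.81 to 0.63, -1.19, SE 0.24, adjusted p 0.00102), and Plk1 became more depleted (-0.94 to -1.70). Fbxo43, the Emi2 inhibitor that holds the egg in metaphase II, gained 0.87 (SE 0.15, adjusted p 3.25e-04) as its inputs fell from between 394 and 408 CPM to between 27.1 and 30.9 CPM, and separase, Espl1, gained 0.83 (SE 0.20, adjusted p 0.00551). Kinesins held 7 gains and 3 losses of 34 (median 0.24, SD over libraries 0.06). Their median ran from 0.07 to 0.31 as single libraries were left out. Kif23 of the central spindle was among the gains (0.92, SE 0.16, adjusted p 2.33e-04). Kif22, a chromosome-arm motor, was among the losses (-1.55, SE 0.19, adjusted p 4.97e-06, 25.9% of its span in another gene). Of 26 nuclear pore genes 5 gained and 0 lost (unadjusted 12 and 1, DESeq2 5 and 1, median 0.30, SD over libraries 0.09), 8 and 0 without L2C input replicate 3, and 1 lost without L2C IP replicate 1. Among genes with a mean of at least 50 counts 10 gained. Nup160 (1.19, SE 0.19, adjusted p 1.18e-04) and Nup98 (0.83, SE 0.14, adjusted p 1.66e-04) had the smallest p. Of 20 genes of p53 and DNA damage 6 gained and 2 lost, the gains including Mdm2, the ligase that degrades p53 (1.18, SE 0.14, adjusted p 5.29e-06), Fancd2 of crosslink repair (1.38, SE 0.19, adjusted p 2.60e-05) and the p53 target Ccng1 (1.53, SE 0.31, adjusted p 0.00125). The losses were Parp1, a sensor of DNA breaks (-0.93, adjusted p 0.00168), and Trp53 itself (-0.53, adjusted p 0.0476), a call that was lost whenever 1 of 10 of the libraries was left out. Over all alternatives 1 to 5 of this list lost, with 4 by DESeq2 and 5 on the 12 libraries alone. Of 31 autophagy genes 7 gained and 3 lost, with Ambra1 among the gains and Atg9a among the losses (-1.19, SE 0.20, adjusted p 2.27e-04, 38.2% of its span in another gene). On the 12 libraries alone there were 4 gains in autophagy, 5 losses in kinesins, 8 losses in Polycomb and 7 gains among heat shock and DNAJ genes.

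Of 26 2-cell genes 3 gained and 2 lost (4 lost on the 12 libraries alone), and 12 had a group at no more than 3 counts per library. Zfp352, a 2-cell marker, had 0.211, 0.300 and 0.536 CPM in MII inputs and 1.45, 1.85 and 2.06 in MII IPs, against 69.6, 94.7 and 104 and 116, 135 and 135 at L2C, so its enrichment fell from log2 2.38 to 0.52 (-1.86, SE 0.39, adjusted p 0.00151) on a base of very few oocyte reads. Tcstv1 gained 0.77 (SE 0.20, adjusted p 0.00889), with lower input at L2C (-0.80). Of 21 pluripotency and zygotic factor genes 4 lost and 0 gained (unadjusted 4 and 1, DESeq2 4 and 0), with 1 gain without L2C IP replicate 2 or MII input replicate 3. Zfp42, the Rex1 marker of pluripotent cells, lost 2.20 (SE 0.38, adjusted p 2.74e-04) with oocyte inputs of only 0.268, 0.539 and 1.11 CPM. Dppa2, which helps to open early embryonic genes, was better covered, with 13.9, 15.3 and 15.6 CPM in MII inputs and 39.9, 44.4 and 46.8 in IPs, and 109.9, 152 and 158 and 147, 159 and 227 at L2C (-1.21, SE 0.24, adjusted p 0.00108).

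The remaining lists held calls in both directions or hardly any. Of 67 splicing factor genes 11 gained and 8 lost, with 5 gains without L2C input replicate 2, 7 without L2C input replicate 3, and 6 without L2C IP replicate 3, MII IP replicate 2 or MII input replicates 2 or 3, while 5 gained and 14 lost on the 12 libraries alone. Of 24 genes of replication licensing 4 gained and 4 lost, with 2 gains without L2C input replicate 2 and, over all alternatives, 1 to 6 gains and 3 to 6 losses. H3K9 methylation and HP1 had 3 gains and 3 losses among 17, SWI/SNF 3 and 2 among 22, and the RNA exosome 1 and 2 among 16. Over all alternatives 1 to 5 genes of H3K9 methylation and HP1, 2 to 4 of SWI/SNF and 2 to 6 of the exosome lost, each with the most on the 12 libraries alone, and the gain in the exosome was absent where genes with over 10% overlap were left out. Imprinted genes had 3 gains and 3 losses among 32, with 1 gain without L2C IP replicate 3, L2C input replicate 2 or L2C input replicate 3, and 1 loss without L2C IP replicate 3, L2C input replicate 3, MII IP replicates 1 or 3 or MII input replicate 1. With DESeq2 or on the 12 libraries alone 6 imprinted genes lost. Of 13 oocyte Fbxw genes 2 gained and 0 lost (edgeR, unadjusted 6 and 0, DESeq2 1 and 0), but gains ranged from 0 to 4 as single libraries were left out. The lowest value came without L2C IP replicates 1 or 3, L2C input replicate 2, MII IP replicates 1 or 2 or MII input replicates 1 or 2, and the highest without L2C input replicate 3. The Obox family had 0 of 8 in either direction (edgeR, unadjusted 1 and 0, DESeq2 0 and 0), with 1 gain without L2C input replicate 3. Of 42 replication-dependent histone genes 1 gained and 0 lost (edgeR, unadjusted 2 and 1, DESeq2 1 and 1), with 0 to 2 gains and 0 to 1 losses as single libraries were left out. Over all alternatives 0 to 3 of these histone genes lost. Among 24 snoRNA hosts and nuclear lncRNAs 1 gained and 1 lost, and over all alternatives 0 to 3 gained and 0 to 1 lost, with 3 gains without MII input replicate 1 and 2 without L2C input replicate 1. The gain was that of Tug1, and the loss, of Snhg15, was not called without MII input replicate 2 (adjusted p 0.148).

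**Figure D4:**
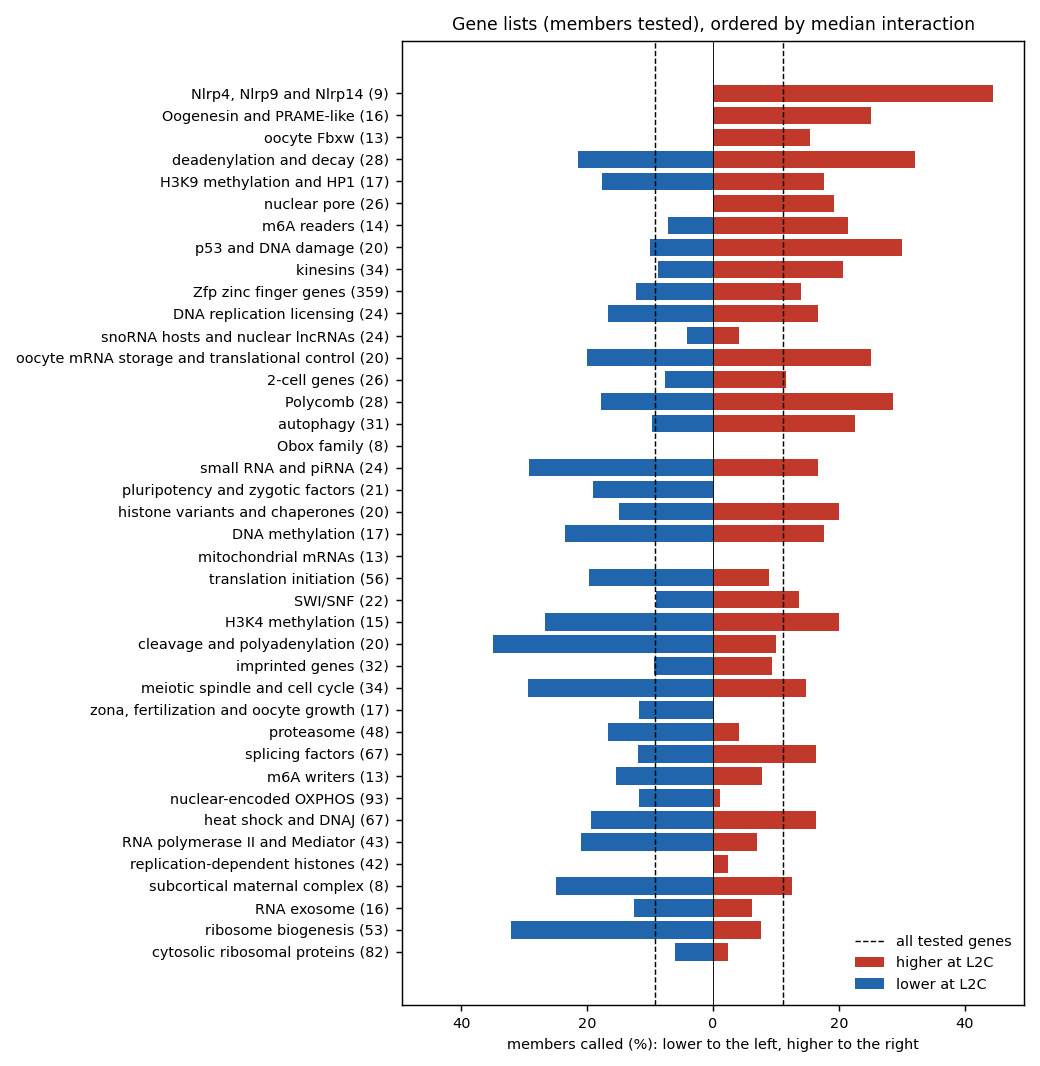
Share of tested members with higher (red, to the right) and lower (blue, to the left) enrichment at L2C in 40 gene lists of at least 8 tested members, ordered by median interaction, with dashed lines at 11.1% and 9.16% for all genes tested. The Nlrp4, Nlrp9 and Nlrp14 list lies at the top and the ribosomal lists at the bottom, where ribosome biogenesis has 17 of 53 members lower.

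Of 9 features of gene structure, genomic span had the largest rank correlation with the interaction. Protein-coding genes were sorted by span, introns included, into 5 classes of equal size. Of the shortest class, with a median of 4415.0 bp, 3.96% gained and 10.4% lost. The shares that gained were 7.27%, 11.7% and 18.97% in the next classes and 25.4% in the longest, with a median of 136980.0 bp, where 7.36% lost. The median interaction was higher in each longer class, from -0.24 over -0.10, 0.06 and 0.20 to 0.34 (SD over libraries 0.10 to 0.15). In the longest class the median log2 IP/input was -0.10, -0.07 and -0.03 in the MII libraries and 0.11, 0.28 and 0.31 in those of L2C, without overlap. In the shortest class the values were 0.00, 0.00 and 0.07 at MII and -0.27, -0.13 and 0.00 at L2C, which overlap. Of the L2C libraries, replicate 2, the shallowest, was the lowest in every class.

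Long genes also lost more input RNA, with a median change of -0.70 in the longest class and 1.20 in the shortest, and this input enters the interaction. The median was also higher in the longest than in the shortest class where the input changed by less than 0.5 in size, from -0.29 in the shortest to 0.36 in the longest class, as it did among genes whose input rose (-0.38 to -0.02) and fell (-0.09 to 0.45). The same was found for genes with less than 10% of the span inside other genes (-0.22 to 0.36), and in the lowest (-0.15 to 0.57) and highest (-0.25 to 0.25) of 3 classes of mean counts. Of 3 classes by length of the mature transcript, the median ran from -0.26 to 0.12 with span in the shortest and from -0.13 to 0.39 in the longest.

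Related features were described in the same way. The class with the lowest exonic share of the span (median 4.05%) had a median interaction of 0.26, and the class with the highest (59.2%) one of -0.22. By length of the longest transcript, 2.66% of the shortest class and 24.2% of the longest gained, and by length of the 3′ UTR 5.43% and 20.7%. Across the 16163 genes Spearman's rho with the interaction was 0.217 for span, 0.166 for transcript length and -0.05 for GGACT per kb (16118 genes), given as a description over genes that share the same 12 libraries. Since the deposited counts include intronic reads, the contribution of unspliced RNA to these values was not tested.

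**Figure D5:**
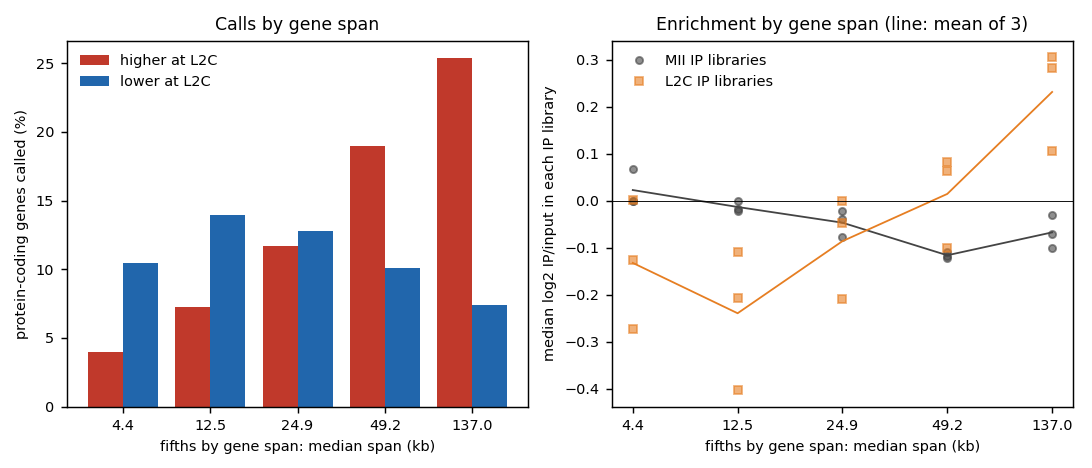
Share of protein-coding genes called higher (red) or lower (blue) in enrichment at L2C, by 5 classes of genomic span (left, y axis in percent), and the median log2 IP/input of each class in every IP library with lines for the mean of 3 (right). Calls of gain climb from 3.96% to 25.4% with span, and the L2C libraries rise above the MII libraries in the longest class.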

How the data were processed

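SLIM-seq libraries of MII oocytes and L2C embryos were compared, with the 6 libraries of late 1-cell (L1C) embryos kept in the fit so that all 18 share an estimate of the spread. The authors quantified reads with kallisto against GRCm38 and deposited estimated counts per gene, not scaled to library size; per the labels Trimmomatic, HISAT2 and featureCounts were also used in the series. The TPM that the authors deposited beside them were not tested and none is printed. The version of kallisto is not given in the sources used here. kallisto targets were whole gene spans with introns, so intronic reads count and overlapping genes can share reads. The library kit is given as stranded in the labels and as a Smart-seq2 protocol in the methods, so strand was not relied on. Of 55471 genes, 55230 matched GENCODE M21 by ID and 54937 had the same span, and positions are given on GRCm38 (mm10).

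Estimated counts were rounded to whole numbers and fitted with edgeR 4.0.16 in R 4.3.3 (filterByExpr, TMM scaling, robust quasi-likelihood F test, 1 coefficient per stage and kind of library, Benjamini-Hochberg adjustment over all 21950 genes), and called at an adjusted p under 0.05. CPM of single genes are TMM-scaled, and sums of markers are scaled to the library total alone. Per-library log2 IP/input uses log2 CPM with a prior count of 2 against the mean of the 3 inputs of a stage. A group is said to be at the floor where none of its libraries held more than 3 counts. The fit was tested on simulated data. Python 3.11.15 with pandas was used for tables.

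Genes were named by rule: the 12 protein-coding and 3 other genes with the smallest p in each direction whose log2 change was above 1 in size, with at least 10 counts in each input, libraries that do not overlap and less than 10% of the span in another gene, then the called member with the smallest p of each of 41 gene lists in each direction, and all genes of m6A writers, erasers and readers. Further genes of these lists were named after their values were seen. All members and lists were chosen with earlier results of these data known. Alternatives were DESeq2 1.42.0, other scalings, filters and gene sets, the 12 libraries alone, the replicate number as a block and each library left out. The knockdown libraries were not used here.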

Additional observations from a re-analysis of the deposited data

Results flagged for a closer look

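The IP effect differed between MII and L2C by the test of the interaction itself for 2428 genes with higher and 2010 with lower enrichment at L2C (edgeR, adjusted p under 0.05, n = 3). The difference reached from depletion to enrichment for 255 genes, among them Frmpd1, Cers6 and Lrp6, and from enrichment to depletion for 325, among them Dnmt1, Tacc3 and Tbc1d10b, the last at a low level in oocytes. Groups of 3 libraries are too small for a test of outlying samples.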

How the results depend on the processing

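Of the 118 genes named by rule, none reversed under any alternative, 102 kept their call under each of them, 13 lost it under at least 1 and 3 gained it. Counts of higher and lower enrichment were 1404 and 1288 with a log2 change above 1 in size, 2437 and 2700 with DESeq2, and 2009 and 1683 with the replicate number as a block. The study reports that inputs and IPs shared batches of RNA, but no label ties a number to a batch. At MII and L2C, deviations of same-numbered input and IP libraries correlated at -0.065 to 0.075. Those of libraries with different numbers correlated at -0.136 to 0.159, so pairing was not assumed. Among the list members described above, the block ended the calls of Elavl1 (adjusted p 0.0613), Ndufs1 (0.0609) and Trp53 (0.0973). Leaving out single libraries gave 1995 to 2535 higher and 1664 to 2035 lower. IP against input at L2C had 7290 enriched genes on library size alone, against 4796. The difference in median interaction between the longest and shortest of 5 classes by span, 0.58, was 0.64 with 10 classes and, in classes added after seeing the data, 0.65 where the input changed by less than 0.5, and 0.72 and 0.50 in the lowest and highest of 3 classes of mean counts. For exonic share, 0.48 became 0.59 and 0.35 in these. The causes of these moves were not tested. Depth limits the genes with low counts, since 4887 of 21950 had at least 1 group at the floor.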

Other observations

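Further genes crossed from depletion to enrichment beyond those named above. Apc, the scaffold that marks beta-catenin for destruction, passed from log2 -0.86 to 0.87, with inputs of 88.4, 90.8 and 105 CPM at MII and 38.6, 40.8 and 44.1 at L2C and an interaction of 1.74 (SE 0.17, adjusted p 3.19e-07). The stress kinase gene Mapk8 went from -1.25 to 0.61 (1.86, SE 0.18, adjusted p 3.75e-07), and Wdr82, a subunit of H3K4 methyltransferase and transcription termination complexes, from -0.76 to 1.07 (1.83, SE 0.18, adjusted p 4.48e-07). These were picked after their values were seen, and all kept their calls under every alternative tried.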
